A study of Homo sapiens with 9 samples.

Results

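The genes of the AMP-activated protein kinase (AMPK) and of its upstream kinase were followed in HMC3 cells, an immortalized human microglial line, after 6 days with a cocktail of small molecules. The set held 7 genes of the 61544 listed, taken by name as the subunits of the kinase and LKB1: PRKAA1 and PRKAA2 for the catalytic α subunit, PRKAB1 and PRKAB2 for the scaffolding β subunit, PRKAG1 and PRKAG2 for the nucleotide-sensing γ subunit, and STK11, which encodes the kinase LKB1. Of all listed genes, 32299 had at least 1 count and 14727 passed the expression filter, and all 7 were among the latter. RNA-seq of polyadenylated RNA covered 9 libraries in 3 groups of 3, all from wild-type HMC3 cells of the same line and each with 6 days of treatment. SLO received SBI-0206965 at 10 µM with Lopinavir and O-151 at 1 µM each. For SLO 1/2 the concentrations were 5 µM SBI-0206965 and 0.5 µM of either other compound, and VEH cells were given DMSO, the solvent.

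AMPK works as a trimer of one α, one β and one γ subunit. When AMP or ADP binds the γ subunit, LKB1, in a complex with a STRAD pseudokinase and a MO25 scaffold, keeps the α subunit phosphorylated on its activation loop, and the kinase then restrains anabolic pathways and promotes autophagy and mitochondrial turnover. SBI-0206965 was introduced as an inhibitor of the autophagy kinase ULK1 and is known to act on AMPK as well. These libraries measured transcripts only, so kinase activity and protein amounts were not seen.

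Reads on genes numbered 14834295 to 19674841 per library. Replicates of a group differed by more than counting error, with chi-square per degree of freedom of 1.70 to 3.86. The labels do not say whether they came from separate cultures, so p-values cover only the spread between these libraries, which may be technical. The microglial label had little support from its defining markers: 11 of 15 had at most 4 reads in every library, and P2RY12, TYROBP, C1QA, C1QB and C1QC were at 0 in all of them. TREM2, a microglial receptor, had at most 20 reads in any library. The 8 fibroblast and mural cell markers summed to 3492 to 3628 TPM in VEH, 4246 to 4317 in SLO 1/2 and 4587 to 4842 in SLO, with COL3A1 near 0. Of its members, COL1A1 (1237 TPM on average in VEH, 1719 in SLO) and TAGLN (310 and 1034) were higher in SLO, whereas VIM (1728 and 1583) and PDGFRB (60.2 and 49.2) were lower. The part of these genes in the results was not tested. In bulk RNA, fewer cells of a kind and less RNA per cell cannot be told apart.

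The subunit genes did not move as one unit. Against VEH, PRKAA2, PRKAB1, PRKAB2 and PRKAG2 were called higher in SLO and PRKAA1 lower, at p-values from edgeR's quasi-likelihood test adjusted over all tested genes by the Benjamini-Hochberg method and below 0.05. That made 5 of 7 genes called, where 64.9% of all tested genes were called, 32.9% higher and 32.1% lower. In SLO 1/2, only PRKAB1 and PRKAG2 of the 7 were called against VEH, both higher, where 52.0% of tested genes were called, 26.7% higher and 25.3% lower. Between the doses, PRKAA2, PRKAB2 and PRKAG2 were higher in SLO and PRKAA1 lower, 4 of 7, against 41.1% of tested genes, 20.8% higher and 20.3% lower. With 7 genes, none of these shares is read as differing from that of the whole transcriptome. Changes are log2 fold changes of read counts scaled to library size by TMM (CPM). The median over the 7 genes was 0.285 in SLO against VEH, 0.109 in SLO 1/2 against VEH and 0.256 between the doses, beside medians over all tested genes of 0.014, 0.015 and -0.001. In SLO against VEH the median absolute log2 fold change over all tested genes was 0.338, with an upper quartile of 0.632.

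**Figure D1:**
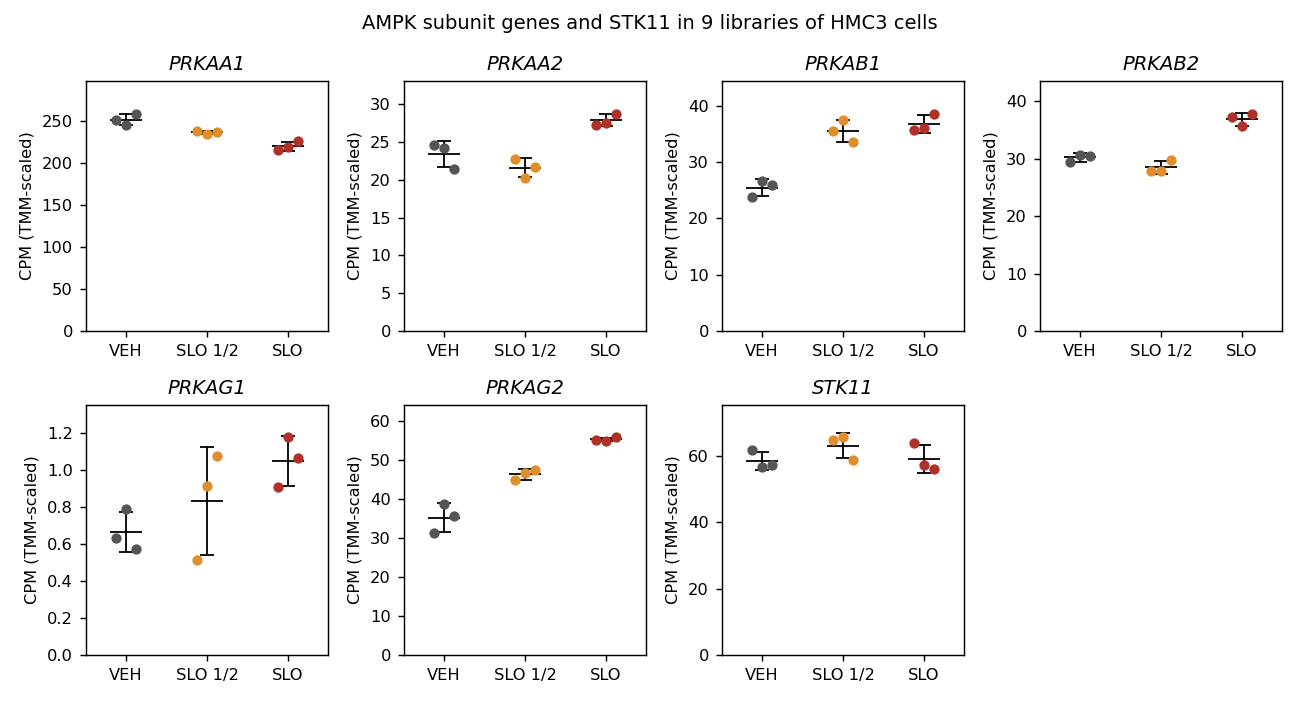
TMM-scaled CPM (linear axis from 0) of the 7 genes in each library (points), with the group mean and SD (black bars, n = 3) for VEH, SLO 1/2 and SLO. PRKAB1 and PRKAG2 lie above VEH at both doses, PRKAA2 and PRKAB2 only in SLO, and PRKAA1 lies lower in SLO, while STK11 overlaps in all 3 groups.

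PRKAA1 (ENSG00000132356.12, GRCh38 chr5:40759389-40798374, minus strand) encodes the α1 catalytic subunit and had the most reads of the 7. Its CPM was 251, 245 and 258 in VEH, 238, 235 and 237 in SLO 1/2 and 215, 219 and 225 in SLO. No library of one group overlapped another group, and the order was VEH, SLO 1/2, SLO from high to low. In SLO it fell by 0.19 on the log2 scale against VEH (SE 0.0388, adjusted p = 7.05e-05), a drop of 12.6%, and every alternative analysis kept this call. The smaller step from VEH to SLO 1/2, -0.09 (adjusted p = 0.0547), missed the threshold, and was called by DESeq2 (adjusted p = 0.0374), by edgeR with DESeq2 size factors, by limma on log2(TPM + 1) (0.00898) and without VEH replicate 2 (0.0346). The step from SLO 1/2 to SLO, -0.11 (SE 0.0388, adjusted p = 0.0288), was lost in 10 of 16 alternatives. Among these were the fits without SLO 1/2 replicate 1, 2 or 3 (adjusted p = 0.0875, 0.0524 and 0.0997) and without SLO replicate 1 or 2 (0.106 and 0.0577).

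PRKAA2 (ENSG00000162409.12, chr1:56645314-56715335, plus strand) encodes α2, the other catalytic subunit. Its CPM was 24.6, 24.2 and 21.4 in VEH, 22.8, 20.2 and 21.7 in SLO 1/2 and 27.2, 27.6 and 28.7 in SLO. SLO lay above all other libraries, while VEH and SLO 1/2 overlapped. It rose by 0.26 in SLO against VEH (SE 0.0706, adjusted p = 0.0023) and by 0.37 against SLO 1/2 (SE 0.0710, adjusted p = 0.000113). In SLO 1/2 the difference from VEH was -0.11, with a 95% interval of -0.26 to 0.04 (adjusted p = 0.204).

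Both α genes thus differed from VEH in opposite directions in SLO. Deposited TPM divides by the summed exon length of each gene, so a comparison of levels between genes depends on that length. On this scale PRKAA1 stood at 180 ± 5.16 (SD, n = 3) in VEH and PRKAA2 at 11.8 ± 0.820. PRKAA2 made up 6.41%, 6.47% and 5.49% of the summed α level in the VEH libraries, 6.28%, 5.70% and 6.04% in SLO 1/2 and 8.16%, 8.11% and 8.20% in SLO. The SLO shares were the highest in all 3 libraries, and those of VEH and SLO 1/2 overlapped. By TPM, PRKAA1 exceeded PRKAA2 15.4 to 1 in VEH and 11.3 to 1 in SLO. With reads divided by the canonical transcript's length instead, the ratios were 19.2 to 1 and 14.1 to 1. The summed α level was 192 ± 4.39 TPM in VEH, 175 ± 4.39 in SLO 1/2 and 171 ± 4.04 in SLO, with SLO 1/2 and SLO overlapping.

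**Figure D2:**
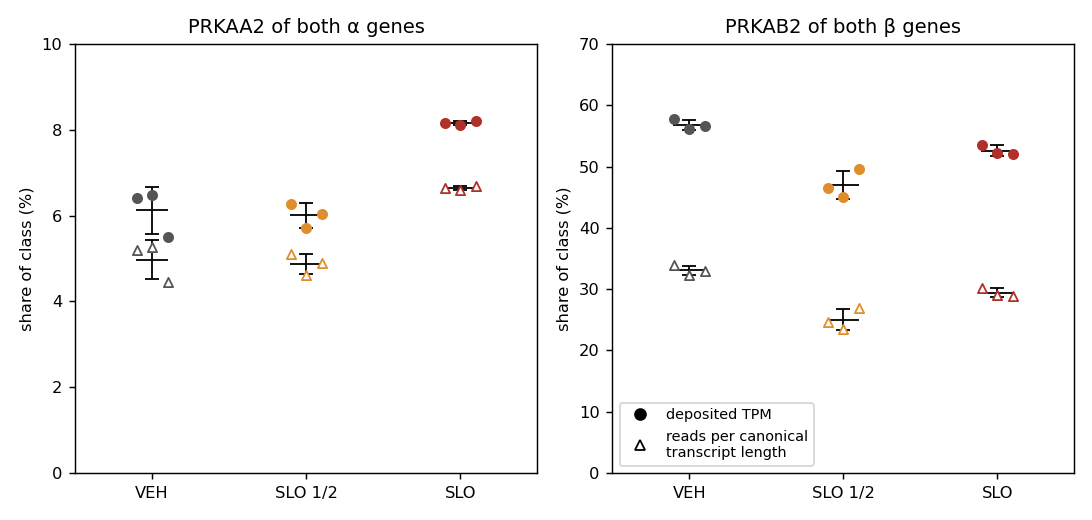
Share of PRKAA2 among both α genes (left) and of PRKAB2 among both β genes (right), in percent, per library, with group mean and SD (n = 3). Filled circles use deposited TPM and open triangles use reads divided by the canonical transcript's length. PRKAA2's share is highest in SLO on both scales, and PRKAB2's is lowest in SLO 1/2.

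PRKAB1 (ENSG00000111725.11, chr12:119667864-119681624, plus strand) encodes β1, the subunit that holds α and γ together and binds glycogen. Its CPM was 23.8, 26.7 and 25.9 in VEH, 35.4, 37.5 and 33.6 in SLO 1/2 and 35.7, 36.1 and 38.6 in SLO. All treated libraries lay above all VEH libraries, and the doses overlapped. It rose 1.44-fold in SLO (log2 0.53, SE 0.0651, adjusted p = 3.66e-08) and 1.40-fold in SLO 1/2 (log2 0.48, SE 0.0648, adjusted p = 3.74e-07). Between the doses the log2 difference was 0.05, with a 95% interval of -0.08 to 0.17 (adjusted p = 0.567).

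PRKAB2 (ENSG00000131791.8, chr1:147155106-147172550, minus strand) encodes β2. Its CPM was 29.4, 30.7 and 30.6 in VEH, 27.8, 27.8 and 29.8 in SLO 1/2 and 37.2, 35.6 and 37.8 in SLO. Only SLO stood apart. It rose by 0.29 against VEH (SE 0.0598, adjusted p = 0.000132) and by 0.37 against SLO 1/2 (SE 0.0600, adjusted p = 1.01e-05), while SLO 1/2 differed from VEH by -0.09, with a 95% interval of -0.21 to 0.04 (adjusted p = 0.243). PRKAB1 was thus called at both doses against VEH and not between the doses, whereas PRKAB2 was called in both comparisons with SLO. The difference between these patterns was not itself tested.

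PRKAB2 made up 57.7%, 56.1% and 56.7% of the summed β TPM in VEH, 46.5%, 45.1% and 49.6% in SLO 1/2 and 53.6%, 52.2% and 52.1% in SLO, and the 3 groups did not overlap. The summed β level was 45.9 ± 2.04 TPM in VEH, 50.7 ± 0.237 in SLO 1/2 and 60.1 ± 1.98 in SLO. Which β gene was the more abundant depended on the length used. The deposited TPM divides PRKAB1 by 6042 bases, all of its annotated exons together, whereas its canonical transcript in GENCODE 44 has 2219 bases. For PRKAB2 these lengths were 5460 and 5343. Per canonical transcript length, an alternative added after the data were seen, PRKAB2 made up 33.1% in VEH, 25.0% in SLO 1/2 and 29.4% in SLO. The order of the groups was the same on both scales. For α, the same change gave 4.97%, 4.87% and 6.64% for PRKAA2.

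PRKAA2 and PRKAB2 had similar patterns, with little at the lower dose and a rise in SLO. After centring each gene on its mean, their log2 CPM differed by a root mean square of 0.0796 over the 9 libraries, and 92 of 14726 other tested genes lay nearer to PRKAA2 than PRKAB2 did. The 250 bases before the start of each of these genes, and of STK11, which was not called in any comparison, are printed to show the sequence at the starts of genes with a like and an unlike pattern. They are from RefSeq (GRCh38.p14), where all 7 genes had at least 1 start, and read 5′ to 3′ on the gene's strand. Capitals mark matches to GGGCGG (the GC box) or CCAAT, on either strand, which can overlap by a base.
PRKAA2, chr1:56645064-56645313, plus strand: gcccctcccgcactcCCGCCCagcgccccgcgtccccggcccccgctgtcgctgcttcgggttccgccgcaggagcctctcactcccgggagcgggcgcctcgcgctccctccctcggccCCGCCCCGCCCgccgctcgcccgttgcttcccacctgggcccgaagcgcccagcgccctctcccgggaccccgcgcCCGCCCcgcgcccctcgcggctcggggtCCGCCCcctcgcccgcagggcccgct
PRKAB2, chr1:147172471-147172720, minus strand: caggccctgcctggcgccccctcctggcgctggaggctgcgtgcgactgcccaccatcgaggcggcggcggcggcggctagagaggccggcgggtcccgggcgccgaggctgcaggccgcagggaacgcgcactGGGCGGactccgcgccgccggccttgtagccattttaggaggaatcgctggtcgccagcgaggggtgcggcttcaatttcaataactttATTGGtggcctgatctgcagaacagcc
STK11, chr19:1205528-1205777, plus strand: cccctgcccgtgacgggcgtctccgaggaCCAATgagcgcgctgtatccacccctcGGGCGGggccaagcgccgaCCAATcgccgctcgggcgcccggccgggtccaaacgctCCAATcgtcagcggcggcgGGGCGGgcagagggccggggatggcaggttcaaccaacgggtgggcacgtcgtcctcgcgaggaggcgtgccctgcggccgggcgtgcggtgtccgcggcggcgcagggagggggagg
PRKAA2 had 5 matches to GGGCGG and none to CCAAT in this window, PRKAB2 had 1 of each, and STK11 had 2 and 3. GGGCGG occurs in 42.6% and CCAAT in 32.0% of 35116 RefSeq windows of the same length. None of the 3 windows held CCGGAAG (the ETS motif, in 8.5% of windows), CACGTG (the E-box, 6.3%), TGACGTCA (CRE, 1.6%) or TGATGNAA (the ATF4 and CEBP composite motif, 3.1%). The window of PRKAB1 held no GGGCGG and 1 CCGGAAG. These matches are letters only, and binding was not measured. In GENCODE 44, exons of non-coding transcripts overlap 84 bases of the PRKAA2 window (PLPP3, on the opposite strand) and 80 bases of the PRKAB2 window (PRKAB2 itself), and the STK11 window holds no exon but lies inside the longer span of the gene, chr19:1177558-1228431.

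PRKAG2 (ENSG00000106617.15, chr7:151556124-151877125, minus strand) encodes γ2, which carries the nucleotide-binding repeats and is known for variants that cause glycogen storage in the heart. Its CPM was 31.3, 38.7 and 35.6 in VEH, 44.7, 46.8 and 47.3 in SLO 1/2 and 55.2, 54.8 and 55.8 in SLO. The groups did not overlap and rose with dose. It had the largest called change of the 7, 1.57-fold in SLO (log2 0.65, SE 0.0608, adjusted p = 1.71e-10), and 1.31-fold in SLO 1/2 (log2 0.39, SE 0.0616, adjusted p = 3.95e-06). SLO exceeded SLO 1/2 by 0.26 (SE 0.0584, adjusted p = 0.000759). RefSeq lists 5 starts for this gene, and counts per gene do not tell which was used. The TPM of PRKAG2 divides by 16427 bases, while its canonical transcript has 3279, so its level of 10.1 ± 1.12 TPM in VEH would be several times higher per canonical transcript.

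PRKAG1 (ENSG00000181929.13, chr12:49002274-49018807, minus strand) encodes γ1, and its level could not be read from these counts. It had only 10, 12 and 11 reads in VEH, 9, 16 and 18 in SLO 1/2 and 15, 20 and 16 in SLO, far fewer than the 3389 to 4945 of PRKAA1. Another annotated gene on the same strand, ENSG00000288710, covers 1612 of the 1657 bases (97.3%) of the canonical PRKAG1 transcript and 2061 of its 4166 exonic bases in GENCODE 44. The read counter used by the authors sets aside a read that overlaps more than 1 gene on the same strand as ambiguous. Such reads made up 3.03% to 3.26% of each library, and ENSG00000288710 itself had 9 reads in all 9 libraries together. How many ambiguous reads came from PRKAG1 was not tested. No exonic base of the other 6 genes was shared in this way. The deposited TPM came from the same counts (0.752 ± 0.126 in VEH) and shares the limit. From the remaining reads, the log2 difference was 0.67 in SLO (95% interval 0.001 to 1.33, adjusted p = 0.0734), and 0.33 in SLO 1/2 (-0.36 to 1.02, adjusted p = 0.432). A share of γ1 against γ2 was therefore not formed.

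**Figure D3:**
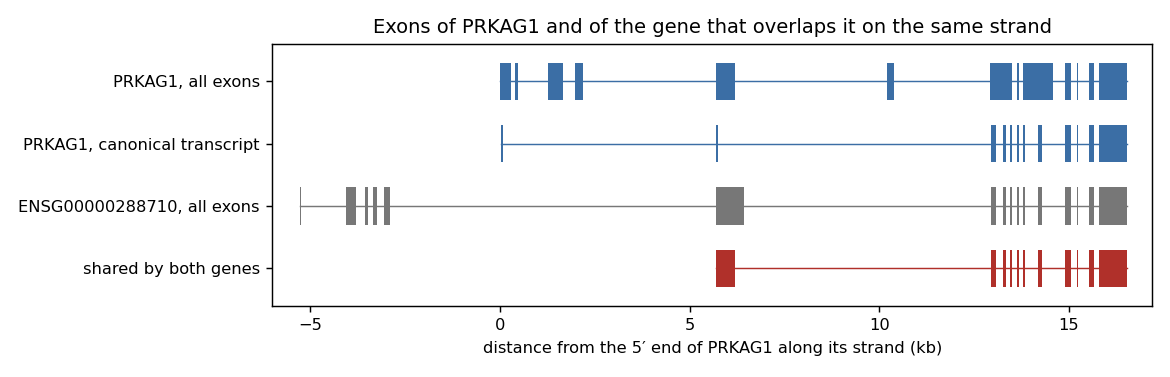
Exons (boxes) along the strand of PRKAG1, by distance in kb from its 5′ end: all annotated PRKAG1 exons, its canonical transcript, the same-strand gene ENSG00000288710, and the stretches both genes share. All but the leading exon of the canonical transcript lies within shared stretches, 97.3% of its bases.

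STK11 (ENSG00000118046.17, chr19:1177558-1228431, plus strand), the LKB1 kinase gene, was not called in any comparison. Its CPM was 61.8, 56.7 and 57.4 in VEH, 64.9, 65.7 and 58.9 in SLO 1/2 and 63.9, 57.2 and 56.1 in SLO, with all groups overlapping. The log2 difference of SLO from VEH was 0.01, with a 95% interval of -0.10 to 0.13 (adjusted p = 0.864). SLO 1/2 differed from VEH by 0.11 (-0.01 to 0.22, adjusted p = 0.105) and SLO from SLO 1/2 by -0.10 (-0.21 to 0.02, adjusted p = 0.177). The difference of SLO 1/2 from VEH passed the threshold when libraries were scaled by size alone (0.16, adjusted p = 0.0187) or VEH replicate 1 was left out (0.15, adjusted p = 0.0425), and that between the doses without SLO replicate 1 (-0.16, adjusted p = 0.0363).

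**Figure D4:**
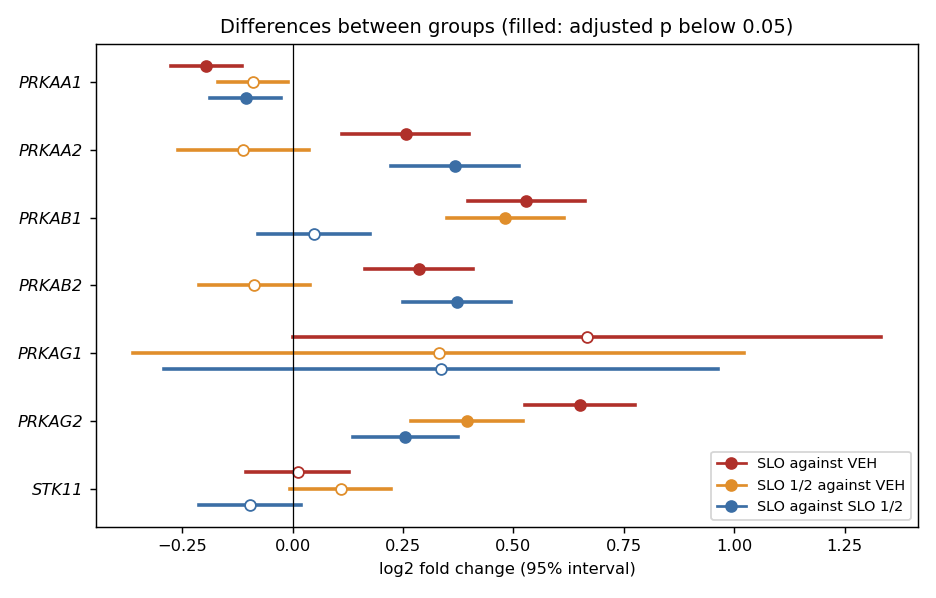
Log2 fold changes (points) with 95% intervals (lines) of the 7 genes in SLO against VEH, SLO 1/2 against VEH and SLO against SLO 1/2, with filled points where the adjusted p was below 0.05. PRKAG2 has filled points above 0 in all 3 comparisons, PRKAA2 and PRKAB2 only in those with SLO, and STK11 has none.

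In CPM, SLO did not overlap VEH for 6 of the 7 genes, STK11 being the exception, where 66.7% of all tested genes did not overlap. These 6 include PRKAG1, whose level could not be read, at 10 to 12 reads per VEH library and 15 to 20 per SLO library. SLO 1/2 did not overlap VEH for PRKAA1, PRKAB1 and PRKAG2 (58.3% of tested genes), and the doses did not overlap for PRKAA1, PRKAA2, PRKAB2 and PRKAG2 (51.0%). By deposited TPM, the order in VEH was PRKAA1, STK11 (31.3 ± 1.29), PRKAB2 (26.1 ± 0.784), PRKAB1 (19.8 ± 1.26), PRKAA2, PRKAG2 and PRKAG1, and the ranges of PRKAA2 and PRKAG2 overlapped. In SLO 1/2, PRKAB1 (26.9 ± 1.10) stood above PRKAB2 (23.8 ± 1.24) and PRKAG2 (12.9 ± 0.392) above PRKAA2 (10.5 ± 0.759), with no overlap. In SLO, PRKAB2 (31.6 ± 0.992) and STK11 (31.4 ± 2.29) overlapped, as did STK11 and PRKAB1 (28.5 ± 1.20). These orders depend on the lengths behind the deposited TPM. The place of PRKAG1 rests on the few reads left to it after ambiguous reads were set aside, so it is not read as a level. Per canonical transcript length, PRKAB2 was below PRKAB1 in every group (33.1%, 25.0% and 29.4% of the β level in VEH, SLO 1/2 and SLO). For PRKAG2 the TPM divides by 16427 bases, while its canonical transcript has 3279.

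The genes nearest in pattern were found for the 6 genes with enough reads, as the smallest root mean square difference of centred log2 CPM over the 9 libraries among 14726 other tested genes. For PRKAA1 they were SRP54 (0.0254), GORASP2 (0.0257) and YME1L1 (0.0268), which encode a part of the signal recognition particle, a Golgi stacking protein and a mitochondrial protease. For PRKAA2 they were the signalling adaptor gene GAB1 (0.0369), the basement membrane gene NID1 (0.0383) and SIK2 (0.0397), a kinase of the AMPK-related family. PRKAB1 had OSBPL10 (0.0473), SLC25A38 (0.0488) and RIPK2 (0.0505), and PRKAB2 had HS2ST1 (0.0342), PHLDB2 (0.0346) and ZFYVE16 (0.0370). PRKAG2 was nearest to the splicing factor gene SRSF6 (0.0466), SFXN5 (0.0474) and KRT80 (0.0504), and STK11 to PTCD1 (0.0313), TMEM208 (0.0425) and TMA7 (0.0458).

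The partners of LKB1 and the other kinases known to act on AMPK were next examined, in a list of 7 genes, all tested. Against VEH, 3 were lower in SLO and 4 in SLO 1/2, and none was higher (median log2 fold change -0.086 and -0.166). Over all tested genes, 32.1% were lower and 32.9% higher in SLO, and 25.3% and 26.7% in SLO 1/2, so little can be read from counts in so short a list. CAB39L, which encodes an MO25 scaffold, fell by 0.91 in SLO (SE 0.136, adjusted p = 1.1e-06), from 7.42 to 3.95 CPM, and by 0.53 in SLO 1/2 (adjusted p = 0.000871). CAMKK1 and CAMKK2 encode calcium-dependent kinases, of which CAMKK2 is known to phosphorylate AMPK without LKB1. CAMKK1 fell by 0.90 in SLO (SE 0.142, adjusted p = 2.57e-06) and by 0.88 in SLO 1/2 (adjusted p = 4.66e-06). CAMKK2 fell by 0.23 (SE 0.0576, adjusted p = 0.00088) and by 0.21 (adjusted p = 0.00296). The fourth in SLO 1/2 was MAP3K7, the TAK1 kinase gene, at -0.12 (adjusted p = 0.0435), a call lost when VEH replicate 1 or 3 (adjusted p = 0.124 and 0.0747) or SLO 1/2 replicate 1 (0.251) was left out. CAB39, the abundant MO25 gene at 134 CPM in VEH, differed by -0.03 in SLO (adjusted p = 0.656). STRADA had 91.0% of its canonical transcript shared with another gene on the same strand, and its 76 to 114 reads carry the same limit as those of PRKAG1. Between the doses, MAP3K7 was higher in SLO and CAB39L lower, and CAB39L lost its call in 11 of 16 alternatives (adjusted p = 0.0526 to 0.166), among them those without SLO 1/2 replicate 1 (0.102) or 3 (0.166) and without SLO replicate 1 (0.0873), 2 (0.054) or 3 (0.0913). The call of MAP3K7 between the doses was lost without SLO 1/2 replicate 1 (0.0599).

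Among regulators and scaffolds of AMPK, SESN3 had the largest fold change in SLO of any gene in the 4 lists. Of the 8 genes, 7 were higher and 1 lower in SLO against VEH, with a median of 0.655 beside 0.014 over all tested genes, of which 32.9% were called higher and 32.1% lower. The sestrins are stress-induced proteins that restrain mTORC1 and bind AMPK. SESN3 rose 9.81-fold in SLO (log2 3.29, SE 0.172, adjusted p = 4.83e-16) and 3.17-fold in SLO 1/2 (adjusted p = 1.58e-07), from 14 to 20 reads per VEH library. SESN1 rose 2.49-fold in SLO (log2 1.32, SE 0.0862, adjusted p = 7.71e-14) and 1.69-fold in SLO 1/2 (adjusted p = 5.24e-08), and SESN2 rose 2.20-fold (log2 1.14, SE 0.0748, adjusted p = 8.32e-14) and 1.62-fold (adjusted p = 1.28e-08). The others higher in SLO were FLCN, FNIP1 and FNIP2, for folliculin and its AMPK-binding partners, and LAMTOR1, a lysosomal anchor, and AXIN1 was the one lower. In SLO 1/2 against VEH, and again between the doses, the 5 genes called, SESN1, SESN2, SESN3, FLCN and FNIP2, were higher in the group with more compound. Over all tested genes, 26.7% were higher and 25.3% lower in SLO 1/2, and 20.8% and 20.3% between the doses. Without VEH replicate 3, the 8 calls of SLO against VEH became 5, losing FNIP1 (adjusted p = 0.0612), AXIN1 (0.167) and LAMTOR1 (0.0771). AXIN1, at an adjusted p of 0.0497, was also lost when VEH replicate 1 (0.0887) or any SLO library was left out (replicate 1, 0.0871, replicate 2, 0.12, replicate 3, 0.0708), and LAMTOR1 when VEH replicate 1 (0.0601), VEH replicate 2 (0.0508), SLO replicate 1 (0.161) or SLO replicate 2 (0.0612) was. FLCN shares 31.2% of its canonical transcript with another gene of its strand.

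LKB1 also activates 12 kinases related to AMPK. In SLO against VEH 5 were called higher (32.9% of all tested genes), in SLO 1/2 against VEH 4 (26.7%), and between the doses 3 (20.8%), with medians of 0.192, 0.135 and 0.082. None was called lower in these comparisons, where 32.1%, 25.3% and 20.3% of all tested genes were, and the difference from those shares was not tested. NUAK1, a kinase linked to cell adhesion, rose 2.29-fold in SLO (log2 1.20, SE 0.0542, adjusted p = 1.89e-17) and 1.55-fold in SLO 1/2 (adjusted p = 1.57e-10), from 35.9 CPM in VEH. SIK2, a kinase that restrains CREB coactivators, rose by 0.32 in SLO (SE 0.0501, adjusted p = 2.13e-06) and was at -0.08 in SLO 1/2 (adjusted p = 0.21), a difference called without VEH replicate 3 (-0.14, adjusted p = 0.0299). SIK1, its close relative, rose 2.31-fold in SLO (log2 1.21, SE 0.284, adjusted p = 0.000499) from 12 reads in each VEH library, and differed by 0.33 in SLO 1/2 (adjusted p = 0.402). MARK2 and SNRK were the others called in SLO, and NUAK1, NUAK2, MARK2 and SNRK those in SLO 1/2. The call of NUAK2 in SLO 1/2 was lost when either VEH replicate 3 (adjusted p = 0.0662) or SLO 1/2 replicate 2 (0.0842) was left out. Between the doses NUAK1, SIK1 and SIK2 were called, SIK1 not without SLO 1/2 replicate 3 (adjusted p = 0.058). With library size only, BRSK2, NUAK2 and MARK3 joined those higher in SLO, which made 8.

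The genes of 22 AMPK substrates, proteins known to be phosphorylated by the kinase, were called in both directions. Against VEH, 8 were higher and 9 lower in SLO, and 5 higher and 8 lower in SLO 1/2, with medians of -0.088 and -0.036. Of all tested genes, 64.9% were called in SLO, 32.9% higher and 32.1% lower, and 52.0% in SLO 1/2, 26.7% higher and 25.3% lower. With 22 genes, the shares of this list are not read as differing from these, and the difference was not tested. Across 16 alternatives, calls in SLO against VEH were lost for ACACB in 8, EEF2K in 6 and RPTOR in 1. PFKFB2 gained a call there in 4, and TSC2 and TXNIP in 2 each. In SLO 1/2 against VEH, PFKFB3 lost its call in 8, TBC1D1 and TXNIP in 4 each, and ULK1 and PPARGC1A in 1 each. Genes of lipid synthesis were among those lower: SREBF1, the transcription factor that drives it, fell by 0.66 in SLO (SE 0.0640, adjusted p = 3.69e-10) and by 0.83 in SLO 1/2 (adjusted p = 1.12e-11), and ACACA, acetyl-CoA carboxylase 1, fell by 0.37 (SE 0.0480, adjusted p = 1.05e-07) and by 0.50 (adjusted p = 7.65e-10). The autophagy initiation genes BECN1 and ULK1 rose in SLO, by 0.36 (SE 0.0451, adjusted p = 5.85e-08) and by 0.38 (SE 0.0649, adjusted p = 7.78e-06), and in SLO 1/2 by 0.25 (adjusted p = 3.65e-05) and by 0.25 (adjusted p = 0.0018). ULK1, as the main target of SBI-0206965, ACACB and the others given for lost or gained calls were named after their values were seen. The other substrates spanned -1.05 for LIPE to 2.61 for PPARGC1A in SLO, both at most 43 reads per library. Between the doses, 9 were higher and 3 lower in SLO, where 20.8% of all tested genes were higher and 20.3% lower. These 12 calls became 7 with limma on log2(TPM + 1) and 4 when that analysis had no filter. As single libraries were left out, SREBF1 lost its call in 6 fits, TXNIP in 5, BECN1 in 4, ACACA in 3, and ACACB and RPTOR in 1 each.

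**Figure D5:**
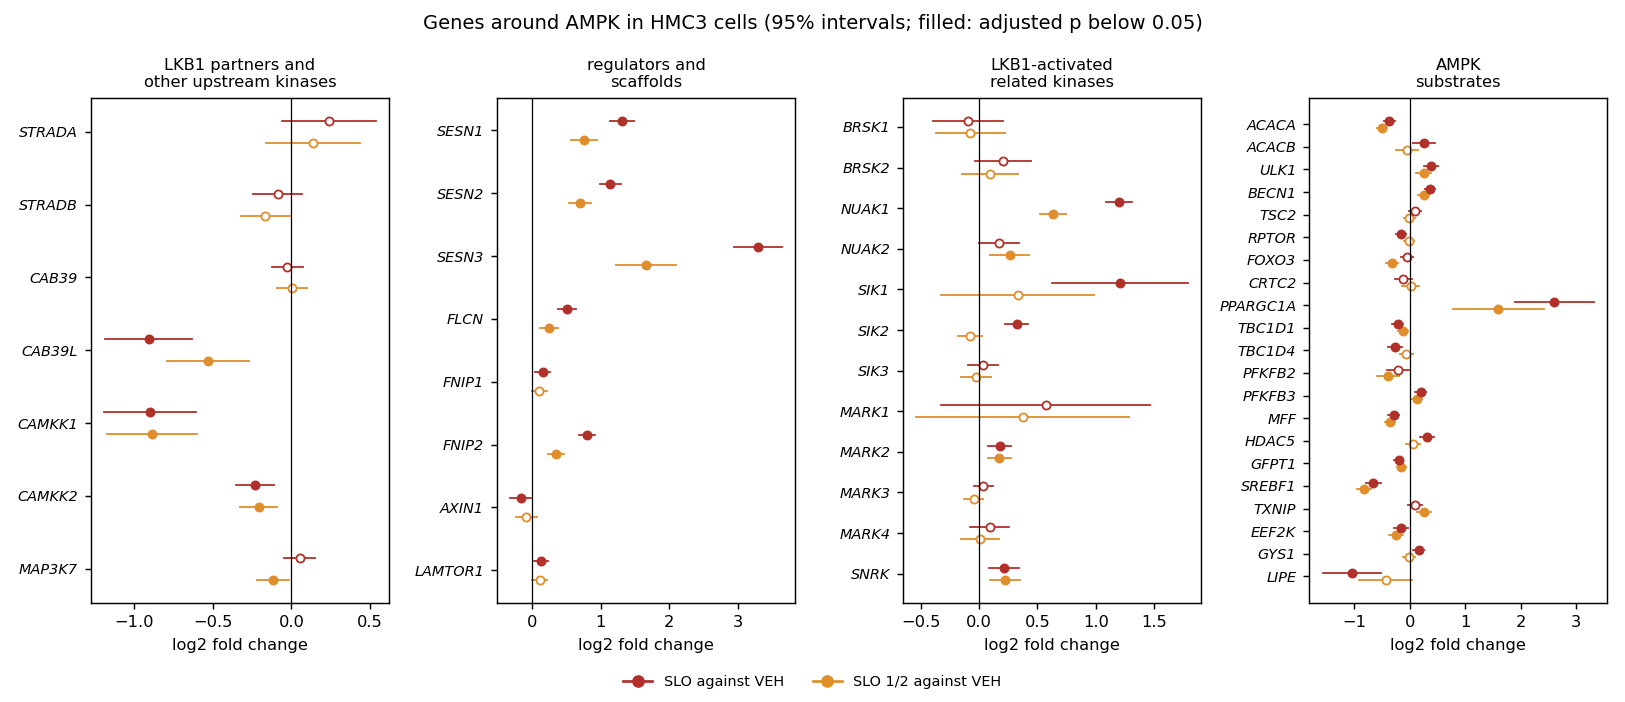
Log2 fold changes (points) with 95% intervals (lines) against VEH for the genes of 4 lists around AMPK, apart from 1 substrate, in SLO and in SLO 1/2, filled where the adjusted p was below 0.05. Horizontal scales differ between panels. SESN1, SESN2 and SESN3 lie to the right at both doses, CAB39L, CAMKK1 and CAMKK2 to the left, and substrates fall on both sides.

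PRKAG3, the third γ gene, which is known from skeletal muscle, was not tested, as it had 1 read in 1 SLO 1/2 library and 0 in the other 8 libraries.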

How the data were processed

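RNA of HMC3 cells was measured in 9 libraries, 3 each of VEH, SLO 1/2 and SLO, grouped by sample title. The authors trimmed reads with Trimmomatic 0.38 and aligned them to GRCh38 with STAR 2.7.1a, whose counts of uniquely aligned reads per gene and strand they deposited as whole numbers. The deposited TPM matched those counts divided by the summed exon length of each gene and scaled to a common total. The annotation release is not given in the sources used here, and GENCODE 44 was used for exon overlaps and transcript lengths (61399 of 61544 genes matched by identifier). Summary lines for unmapped, multimapping, unassigned and ambiguous reads were left out.

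The tests used edgeR 4.0.16 under R 4.3.3: filterByExpr, TMM, and a quasi-likelihood fit to all 9 libraries without covariates, adjusted by the Benjamini-Hochberg method over 14727 genes and called below 0.05. Scripts were tested on simulated counts. Log2 CPM used a prior count of 2. Alternatives were DESeq2 1.42.0, limma 3.58.1 on log2(TPM + 1) or log2(TPM + 0.1), other scaling, filters and sample sets, the replicate number as a block, and leaving out each library. The members and gene lists were chosen with earlier results of these data known. Named genes were all members, the 3 of each list with the lowest p for SLO against VEH, the genes nearest in pattern, and those behind small counts, which were named after their values were seen. A few genes that belong to these lists are not reported here.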

Additional observations from a re-analysis of the deposited data

How the results depend on the processing

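Across 16 alternatives per comparison, the number of the 7 genes called ranged from 5 to 6 in SLO against VEH, from 2 to 3 in SLO 1/2 against VEH and from 3 to 4 between the doses. The calls of PRKAA2, PRKAB1, PRKAB2 and PRKAG2 in SLO against VEH, and their directions, held in all 16. The difference of STK11 between SLO and VEH, 0.01 in log2 and not called, turned negative without the filter on low counts (-0.0079), and ranged from -0.0491 (without SLO replicate 1) to 0.0509 (without VEH replicate 1) as each library was left out, with -0.0096 and -0.005 without VEH replicate 2 or 3. PRKAG1 was called in SLO with library size only (0.74, adjusted p = 0.048). Whether the replicate numbers pair the libraries is not settled by these values. In deviations from group means, same-numbered libraries of different groups correlated weakly but always positively, at 0.003 to 0.087. Differently numbered libraries correlated at -0.062 to 0.037, and not every library correlated best with its own number. With the replicate block, 5, 2 and 4 of the 7 genes were called, as without it, and over all genes 9622 in SLO against VEH, 7749 in SLO 1/2 against VEH and 6162 between the doses, beside 9565, 7663 and 6056. The block ended the call of SREBF1 between the doses (adjusted p = 0.0536). That call was lost in 10 of 16 alternatives (adjusted p = 0.0531 to 0.201), of which 6 left out a library. Of 384 values of the 12 list genes named by rule against VEH, 383 kept direction and call. These genes were picked for the lowest p, which favours kept calls, and other list genes were less stable. In SLO against VEH, AXIN1 lost its call in 11 of 16 alternatives, LAMTOR1 in 9 and ACACB in 8. Shares within a subunit class moved with the length used, by reads alone to 8.52% for PRKAA2 and 54.3% for PRKAB2 in VEH. Depth limits PRKAG1, with 9 to 20 reads per library, and the low genes SIK1, SESN3 and PPARGC1A in VEH, where a single library carries 4 to 20 reads.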
